A study of Mus musculus with 8 samples.

Results

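The cardiac myosin heavy and light chains were examined in left ventricles of male C57BL/6J wild-type mice with ANG II-induced hypertension. The set holds 8 genes, chosen by name from the 55679 genes of the deposited expression table. They are the heavy chains Myh6, Myh7 and Myh7b, the ventricular light chains Myl2 and Myl3, the atrial-type light chains Myl4 and Myl7, and the kinase Mylk3. The ANG II group, WT_A1 to WT_A4, received angiotensin II, a pressor hormone, at a dose of 1500 ng/kg/min for 7 days through an osmotic pump under the skin. The control group, WT_C1 to WT_C4, received saline for 7 days in the same way. The mice carried no transgene, and their age is not given in the sources used here. Each library is named below by its group and number, and nothing in the labels says more about how the 4 samples of a group relate, so p-values measure the spread between these samples.

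Myosin forms the thick filament of the sarcomere, and each molecule is built from a pair of heavy chains, which carry the motor, with an essential and a regulatory light chain on each. In the adult mouse ventricle the fast alpha heavy chain (Myh6) is the main form, while the slower beta heavy chain (Myh7) dominates before birth and returns under pressure load and low thyroid hormone. Light chains also come in ventricular forms (Myl2 regulatory, Myl3 essential) and atrial forms (Myl7 regulatory, Myl4 essential), and the cardiac kinase Mylk3 phosphorylates the regulatory chain. Each of the 3 heavy chain genes also holds a microRNA in an intron.

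The 3 intronic microRNAs are shown because they tie the heavy chain genes together in sequence. Their mature forms are printed 5′ to 3′ as in RefSeq (GRCm38.p6), with the seed, bases 2 to 8, in capitals.
mmu-miR-208a-3p, in Myh6: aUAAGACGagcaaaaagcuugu
mmu-miR-208b-3p, in Myh7: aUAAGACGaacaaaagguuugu
mmu-miR-499-5p, in Myh7b: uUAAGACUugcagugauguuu
They lie at chr14:54949072-54949093 (minus strand), chr14:54975710-54975731 (minus strand) and chr2:155622893-155622913 (plus strand). The forms from Myh6 and Myh7 share the whole seed and differ at 3 bases, G10A, A16G and C18U, counted from 1 at the 5′ end with the miR-208a base first. The form from Myh7b has 6 of the 7 seed bases in common with them and differs within the seed by G8U.

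Shown here are stretches before the start sites of Myh7, Myh6 and Myl7, all of which hold the motif described below. Myh7 was called higher and Myh6 lower with ANG II, and Myl7, which was not called, had ANG II values above all control values. Myh7b and Mylk3 were also called lower, and Myl4 also lay above all control values without a call, but their stretches are not printed. The sequences are RefSeq's (GRCm38.p6), read along the gene's own strand up to the first annotated exon base, with MCAT elements in capitals. An MCAT element is the binding motif of the TEAD factors, searched as CATTCC on both strands, so GGAATG is the same motif on the other strand.
Myh7, chr14:54994627-54994876, minus strand: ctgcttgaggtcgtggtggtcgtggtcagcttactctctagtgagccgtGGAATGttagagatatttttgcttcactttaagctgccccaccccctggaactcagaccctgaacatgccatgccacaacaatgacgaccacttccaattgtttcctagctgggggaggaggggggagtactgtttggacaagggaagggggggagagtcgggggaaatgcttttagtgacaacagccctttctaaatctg
Myh6, chr14:54966642-54966857, minus strand: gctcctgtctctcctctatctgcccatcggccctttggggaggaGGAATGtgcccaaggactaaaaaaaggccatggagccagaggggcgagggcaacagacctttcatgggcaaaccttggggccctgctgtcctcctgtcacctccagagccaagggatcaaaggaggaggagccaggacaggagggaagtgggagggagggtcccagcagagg
Myl7, chr11:5898783-5899032, minus strand: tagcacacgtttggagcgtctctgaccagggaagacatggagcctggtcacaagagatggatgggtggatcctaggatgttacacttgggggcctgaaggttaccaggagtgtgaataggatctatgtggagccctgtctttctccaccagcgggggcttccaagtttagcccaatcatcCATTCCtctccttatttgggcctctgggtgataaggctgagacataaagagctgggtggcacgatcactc
The motif begins at -201 in Myh7, at -206 in Myh6 and at -70 in Myl7, counted from each RefSeq start. The 8 genes have 11 RefSeq windows of 250 bases, of which 5 held the motif, as did 12.6% of all 32851 promoters. The windows of Myh7b and Myl4 held 0 MCAT elements, and Mylk3 held 1, at -148 from 1 of its starts. Other motifs were also searched. The E-box was in 9 of the 11 windows, against 66.2% of all promoters, and the thyroid half-site in 2, against 14.0%. The GATA motif was in 3 windows, against 9.99% of all promoters, and the TATA motif in 1, against 12.4%. Myh7 has 2 RefSeq starts, and the window of the other start, chr14:54994550-54994799, held no MCAT element.

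Expression was measured by RNA-seq of poly(A) RNA and is given as FPKM, fragments per length of transcript and per mapped fragment. The libraries held 14455654 to 16564828 fragments, recovered from the steps of the values. The extraction text in the labels names CRC cells, whereas the tissue label reads left ventricle, and all 10 ventricular cardiomyocyte markers were expressed, summing to 25960 to 32563 FPKM per library. Mitochondrially encoded genes took 28.9 to 30.2% of summed FPKM in the control group and 22.1 to 24.6% in the ANG II group. Fibroblast markers, all 8 of which were called higher, summed to 524 to 790 FPKM in the control group and 3355 to 4006 FPKM with ANG II, and Col1a1, Col1a2 and Postn had the largest fold changes among them. Macrophage markers (8 of 8 called higher, with Adgre1, Cd68 and C1qb foremost by log2 fold change in limma) summed to 267 to 337 FPKM and 594 to 828 FPKM. Their part in the results on myosin was not tested. Library control 3 stood apart in Myl4, Myl7, Sln and Mybphl, which were near 0 there, and ANG II 3 had the lowest Myh7 and the highest Myl4 and Myl7 of its group.

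Among the 8 myosin genes, 4 were called different, Myh7 higher and Myh6, Myh7b and Mylk3 lower. A call required an adjusted p-value under 0.05 by limma over all 19364 genes tested and an absolute log2 fold change above 0.5 on log2(FPKM + 1). Scaling to the ventricular cardiomyocyte markers, a setting chosen after the data were seen, also gave 4 calls, but 3 higher (Myh7, Myl4 and Myl7) and 1 lower (Myh7b). Of all genes tested 15.4% were called, 14.0% higher and 1.41% lower. In 7 of the 8 genes the 4 ANG II libraries did not overlap the 4 control libraries, 3 lying above and 4 below, against 33.7% of all genes tested, 28.7% above and 5.06% below. Regardless of fold, 6 of the 8 genes had an adjusted p under 0.05 (limma), against 33.3% of all genes tested. The median log2 fold change was -0.36 over the 8 genes and 0.15 over all genes tested. With each change taken relative to that median, Myh6 was at -0.69, Myh7b at -0.90, Mylk3 at -0.73, Myl2 at -0.62, Myl3 at -0.40 and Myh7 at 3.50. Of all calls, 90.8% were higher, and this share was 67.5% after scaling by the median of ratios, 58.9% after quantile scaling and 78.3% after scaling to a total without mitochondrial and top 10 genes, and 97.4% after scaling to the ventricular cardiomyocyte markers.

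**Figure D1:**
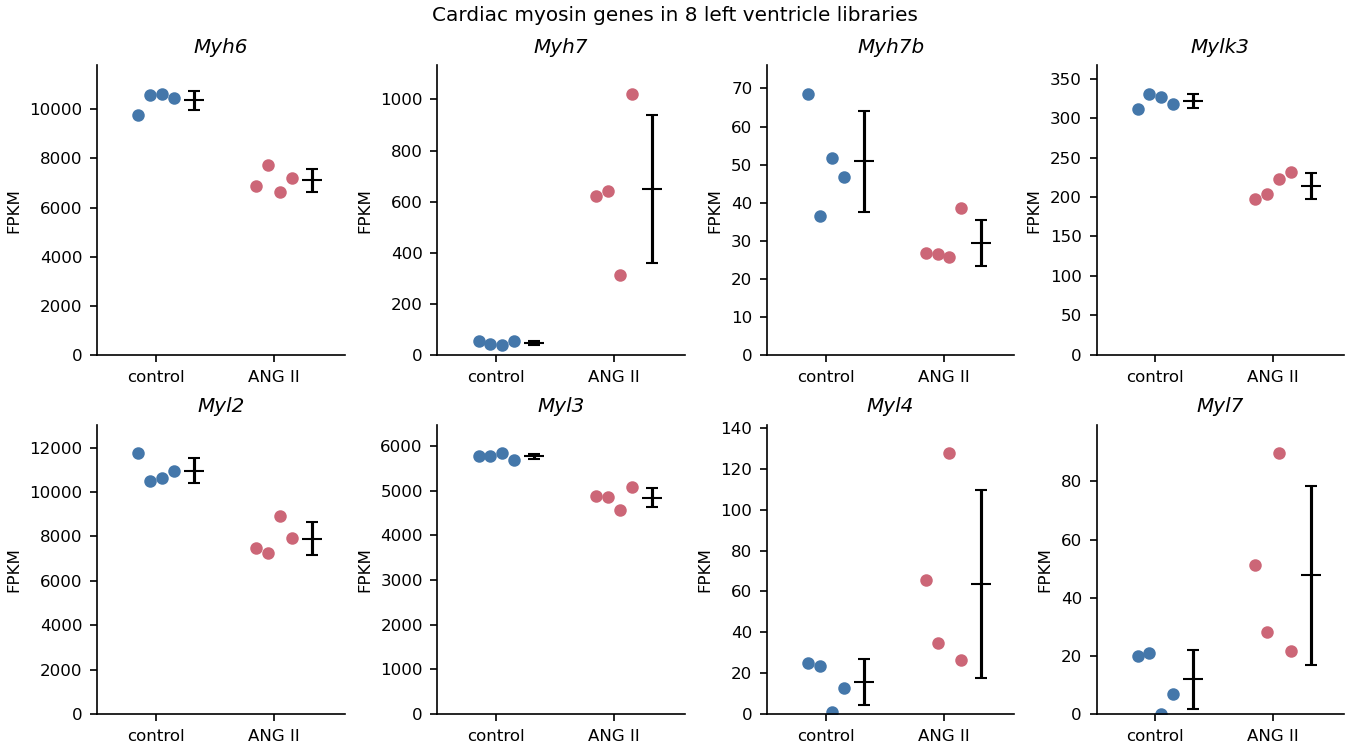
FPKM of the 8 myosin genes, each panel with its own linear axis from 0; every point is 1 library (blue, control; red, ANG II) and the bar beside it is the mean ± SD (n = 4). Only Myh7b shows overlap between the groups, and the mean of Myh7 rose from 47.4 to 649 FPKM.

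The beta heavy chain Myh7 (ENSMUSG00000053093, GRCm38 chr14:54970684-54994626, minus strand) changed most of the 8 genes. Its level was 56.1, 40.8, 39.3 and 53.5 FPKM in control libraries 1 to 4. In ANG II libraries 1 to 4 it was 620, 643, 312 and 1021 FPKM. Every ANG II library thus lay above every control library, although the ANG II libraries differed among themselves by a wide margin. The mean rose from 47.4 ± 8.58 to 649 ± 290 FPKM (SD, n = 4 each), a ratio of means of 13.7. The log2 fold change was 3.64 with a 95% interval from 2.98 to 4.31 (limma, adjusted p = 2.86e-05). The values rested on 1361 to 1868 fragments per control library and 10759 to 37221 per ANG II library. Of the 50-base words of its transcripts, 15.6% also occurred in other genes, most often Myh6, and 13.3% of its exon bases lay under a gene on the opposite strand.

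Myh6 (ENSMUSG00000040752, GRCm38 chr14:54941921-54966927, minus strand), the alpha heavy chain, lies beside Myh7 and was the most abundant heavy chain in every library. It was at 9788, 10595, 10614 and 10470 FPKM in the control group. With ANG II it was at 6858, 7734, 6618 and 7197 FPKM. All ANG II libraries were below all control libraries. The mean fell from 10367 ± 391 to 7102 ± 484 FPKM (SD, n = 4), a change of -31.5%. The log2 fold change was -0.55 ± 0.0891 (SE; limma, adjusted p = 0.00126). In bulk tissue, fewer cardiomyocytes and less RNA per cardiomyocyte cannot be told apart. When the libraries were scaled to the ventricular cardiomyocyte markers, the log2 fold change was -0.35 (limma, adjusted p = 0.0063) and fell short of the fold threshold. It was -0.10 after quantile scaling (limma, adjusted p = 0.36), so both settings ended the call. Over all 19 alternatives its adjusted p ran from 4.18e-06 to 0.36. Of the 50-base words in Myh6 transcripts 20.2% were shared with other genes, most often Myh7, so a part of the reads of either gene could be assigned to the other.

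Within each library, Myh7 was set against Myh6, a ratio that no single scaling factor per library can change. Myh7 stood at 0.573, 0.385, 0.371 and 0.511% of Myh6 in control libraries 1 to 4. The 4 ANG II libraries gave 9.05, 8.31, 4.71 and 14.2%. Even the lowest ANG II library was thus far above the highest control library. The log2 difference was 4.22 ± 0.361 (SE), equal to 18.6-fold, with p = 0.0286 in an exact two-sided permutation test over 70 allocations (adjusted over 6 ratios, 0.0429). This is the smallest p that 4 against 4 libraries can give. Quantile scaling, which changes genes of different level by different factors, gave log2 fold changes of 3.49 for Myh7 and -0.10 for Myh6, and so a smaller gap between them. As a share of Myh6 plus Myh7 FPKM, Myh7 made up 0.458 ± 0.0973% in the control group and 8.22 ± 3.26% with ANG II (SD, n = 4).

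Myh6 remained the bulk of the heavy chain RNA, and the sum of Myh6 and Myh7 went from 10414 ± 385 to 7751 ± 673 FPKM (SD, n = 4). The mean gain of Myh7, 601 FPKM, amounted to 18.4% of the mean loss of Myh6, 3265 FPKM. The deposited values divide by the mean length of a gene's transcripts, 2097 bases for Myh6 and 2283 bases for Myh7, which is well below the longest transcripts of 6113 and 6230 bases. With the longest transcript as length, the Myh7 to Myh6 ratio was 0.491% in the control group and 9.68% in the ANG II group.

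**Figure D2:**
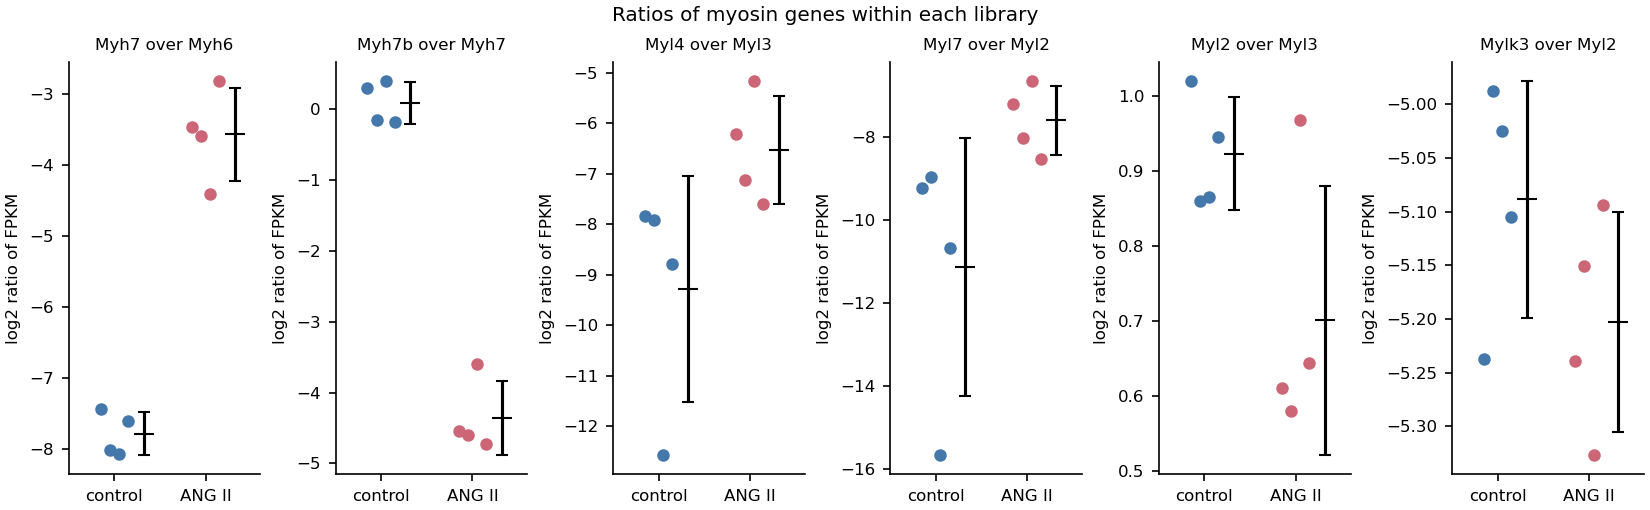
Log2 of the ratio of FPKM values within a library for 6 gene pairs, each panel with its own axis; points are libraries (blue, control; red, ANG II) and bars are mean ± SD (n = 4). The Myh7 to Myh6 ratio differed by 4.22 and the Myh7b to Myh7 ratio by -4.45, whereas the groups overlap for Myl2 over Myl3 and Mylk3 over Myl2.

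Myh7b (ENSMUSG00000074652, GRCm38 chr2:155611212-155634307, plus strand), an ancient heavy chain that gives little protein in the mammalian heart, was about as abundant as Myh7 in the control group and moved the other way. Its control values were 68.5, 36.5, 51.6 and 46.8 FPKM, and its ANG II values were 26.7, 26.4, 25.8 and 38.5 FPKM. The groups overlap, since ANG II 4 lay above control 2. The mean fell from 50.9 ± 13.3 to 29.4 ± 6.09 FPKM (SD, n = 4), and limma gave -0.76 ± 0.183 (SE) for the log2 fold change, with adjusted p = 0.0104. Myh7b equalled 107.6 ± 22.4% of Myh7 in the control group and 5.12 ± 2.12% with ANG II. The log2 difference of that ratio was -4.45 ± 0.301 (SE; exact permutation test, p = 0.0286, adjusted over 6 ratios 0.0429).

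The transcripts that share these loci gave no call in the deposited values. Mir208b (chr14:54975700-54975776, minus strand), the hairpin that yields the miR-208b sequence printed above, overlaps no Myh7 exon. It was at 66.5, 75.6, 43.1 and 50.9 FPKM in the control group and 39.4, 56.2, 75.6 and 43.9 FPKM with ANG II. The groups overlap, at 55 to 85 fragments per control library and 46 to 88 per ANG II library, and the log2 fold change was -0.14 ± 0.218 (SE; 95% interval -0.63 to 0.34; limma, adjusted p = 0.653). It was 0.051 when scaled to the ventricular cardiomyocyte markers, so its sign depended on the scaling. Relative to Myh7 it went from 127 ± 39.9% to 10.9 ± 9.08% (SD, n = 4). FPKM divides by length, 77 bases for Mir208b and a mean of 2283 for Myh7, so these percentages do not compare fragments. Myh7 held 1361 to 1868 fragments per control library. Poly(A) libraries do not capture mature microRNAs, so the Mir208b fragments do not measure miR-208b itself.

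Mir208a, in Myh6, held 0 to 8 fragments per library, too few for a comparison, and Mir499, in Myh7b, was listed at 0 in all 8 libraries. Mhrt, a long noncoding RNA transcribed against the Myh7 strand (chr14:54968678-54974349, plus strand), was at 38.1, 25.3, 23.6 and 24.1 FPKM in the control group. Its ANG II values were 14.7, 21.9, 28.7 and 18.4 FPKM, which overlap the control values. The log2 fold change of -0.40 ± 0.202 (SE) did not pass (limma, adjusted p = 0.158), and 39.9% of its exon bases lie under Myh7. Whether counting used the strand is not given in the sources used here, so Mhrt and Myh7 reads at these bases cannot be told apart. It was called lower after median of ratios scaling (-0.62, limma, adjusted p = 0.0441), after quantile scaling (-0.62, limma, adjusted p = 0.0488) and without ANG II 3 (-0.56, limma, adjusted p = 0.0444), and its adjusted p reached 0.428 over 19 alternatives.

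Both ventricular light chains were lower with ANG II by less than the fold threshold. Myl2 (ENSMUSG00000013936, GRCm38 chr5:122100951-122113472, plus strand), the regulatory chain, was at 11733, 10477, 10627 and 10950 FPKM in the control group. With ANG II its values were 7462, 7249, 8925 and 7925 FPKM, all below the control range. The means were 10947 ± 560 and 7890 ± 745 FPKM (SD, n = 4), a change of -27.9%. The difference of -0.48 ± 0.0993 (SE) on the log2 scale, with adjusted p = 0.00489 by limma, did not reach the fold threshold and so gave no call. It was called after median of ratios scaling (-0.70, limma, adjusted p = 0.00145), after scaling to the total without mitochondrial and top 10 genes (-0.62, limma, adjusted p = 0.00151) and without ANG II 3 (-0.54, limma, adjusted p = 0.00119), and its adjusted p reached 0.477 with quantile scaling (-0.094).

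Myl3 (ENSMUSG00000059741, GRCm38 chr9:110741861-110769798, plus strand), the essential chain, varied little within the control group, at 5785, 5771, 5831 and 5687 FPKM. Its ANG II values were 4886, 4851, 4563 and 5074 FPKM. These again lay below every control value, by a smaller margin than for Myl2. The mean went from 5768 ± 59.9 to 4844 ± 211 FPKM (SD, n = 4), a change of -16.0%. On the log2 scale limma gave -0.25 ± 0.0716 (SE), with adjusted p = 0.0215, and the sign turned to 0.10 after quantile scaling (limma, adjusted p = 0.428). Scaled to the ventricular cardiomyocyte markers, the log2 fold change was -0.054 for Myl3 (limma, adjusted p = 0.593) and -0.28 for Myl2 (limma, adjusted p = 0.0695). The adjusted p of Myl3 ran from 4.28e-04 to 0.593 over 19 alternatives.

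Myl2 over Myl3 was 190 ± 10.03% in the control group and 163 ± 21.6% with ANG II (SD, n = 4), and ANG II 3, at 196%, lay among the control libraries. The log2 difference of -0.22 ± 0.0977 (SE) did not pass (exact permutation test, p = 0.114, adjusted over 6 ratios 0.137). The sum of Myh6 and Myh7 over the sum of Myl2 and Myl7 was 0.953 ± 0.0805 in the control group and 0.987 ± 0.160 with ANG II (SD, n = 4). With the longest transcript as length it was 0.582 ± 0.0492 and 0.604 ± 0.0997, so its level depended on the length used. The group difference in that balance of heavy over regulatory light chain RNA was smaller than the spread between libraries. The 8 genes together took 4.00 ± 0.0302% of summed FPKM in the control group and 3.06 ± 0.0966% with ANG II, or 5.67 ± 0.0665% and 3.97 ± 0.119% when mitochondrially encoded genes were left out.

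The atrial-type light chains were higher in every ANG II library than in every control library, but their spread was wide and neither was called. Myl4 (ENSMUSG00000061086, GRCm38 chr11:104550663-104595753, plus strand), the atrial essential chain, was at 25.2, 23.7, 0.950 and 12.8 FPKM in the control group. ANG II libraries 1 to 4 gave 65.6, 34.8, 128 and 26.3 FPKM. The highest control library and the lowest ANG II library were close, and control 3 held 17 fragments. The means were 15.7 ± 11.3 and 63.5 ± 45.9 FPKM (SD, n = 4), with a log2 fold change of 2.23 (95% interval 0.45 to 4.01; limma, adjusted p = 0.0557).

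Myl7 (ENSMUSG00000020469, GRCm38 chr11:5896637-5898782, minus strand), the atrial regulatory chain, was at 19.8, 21.1, 0.205 and 6.76 FPKM in the control group and at 51.1, 28.2, 89.6 and 21.7 FPKM with ANG II. The order of the libraries was nearly that of Myl4, with control 3 lowest, at 2 fragments, and ANG II 3 highest. Means of 11.98 ± 10.2 and 47.6 ± 30.7 FPKM (SD, n = 4) gave a log2 fold change of 2.38 (95% interval 0.48 to 4.27; limma, adjusted p = 0.0557). Without control 3 the log2 fold changes were 1.38 for Myl4 (limma, adjusted p = 0.0662) and 1.46 for Myl7 (limma, adjusted p = 0.0628). Both genes were called without control 1 (limma, adjusted p = 0.0423 for Myl4 and 0.0385 for Myl7), without control 2 (0.046 and 0.0352) and when scaled to the ventricular cardiomyocyte markers (0.0295 for each). They were also called when genes under a mean of 1 FPKM were left out (limma, adjusted p = 0.0389 for each) and by voom on recovered fragments (0.0235 and 0.0268). Over all 19 alternatives the adjusted p reached 0.134 for Myl4 and 0.131 for Myl7, both without ANG II 3.

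Set against its ventricular counterpart, Myl7 was 0.109 ± 0.0929% of Myl2 in the control group and 0.588 ± 0.327% with ANG II, and Myl4 was 0.272 ± 0.195% of Myl3 and 1.34 ± 1.03% (SD, n = 4). For both ratios the groups did not overlap. Log2 differences were 3.54 ± 1.61 for Myl7 over Myl2 and 2.76 ± 1.24 for Myl4 over Myl3 (SE; exact permutation test, p = 0.0286 and adjusted over 6 ratios 0.0429 for each). Without control 3 they were 2.02 and 1.67. The ventricular forms thus made up nearly all light chain RNA in both groups.

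The atrial genes Sln and Mybphl stood beside these light chains. Sln, the atrial regulator of the calcium pump, was at 3.78, 2.60, 0 and 0.843 FPKM in the control group and 8.96, 3.38, 13.4 and 4.42 FPKM with ANG II. Mybphl, an atrial relative of myosin binding protein C, was at 1.46, 1.40, 0 and 0.359 FPKM and then 3.83, 1.67, 7.98 and 1.47 FPKM. The groups overlap for Sln and nearly meet for Mybphl. Both were lowest in control 3 and highest in ANG II 3, as were Myl4 and Myl7. Of the 9 atrial markers, 8 were tested and 4 were called higher (Nppa, Dkk3, Sln and Mybphl), against 14.0% of all genes tested. The median log2 fold change over the 8 markers was 0.75. Among those that did not pass, the log2 fold changes were -0.052 for Nr2f1, -0.26 for Kcna5 and -0.32 for Stard10. Kcna5, a potassium channel gene on that list, did not follow the libraries of Sln and Mybphl, at 8.02, 14.6, 13.6 and 13.4 FPKM in the control group and 11.7, 7.84, 8.60 and 12.3 FPKM with ANG II. Bmp10, an atrial growth factor, was at 0 in all control libraries and at most 0.0294 FPKM with ANG II. The atrial list summed to 40.7 to 54.9 FPKM in the control group and to 176 to 213 FPKM with ANG II. Nppa, which encodes atrial natriuretic peptide and made up most of the sum with ANG II but not in the control group, went from 8.61 ± 1.86 to 141 ± 22.8 FPKM (SD, n = 4). Of Nppa's exon bases, 61.5% lie under a gene on the opposite strand. The calls on Sln and Mybphl were lost without control 3 (limma, adjusted p = 0.0649 and 0.115) and without ANG II 3 (0.0738 and 0.0873), and over 19 alternatives they were lost in 8 and 11. The part of atrial tissue in the Myl4 and Myl7 values was not tested.

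**Figure D3:**
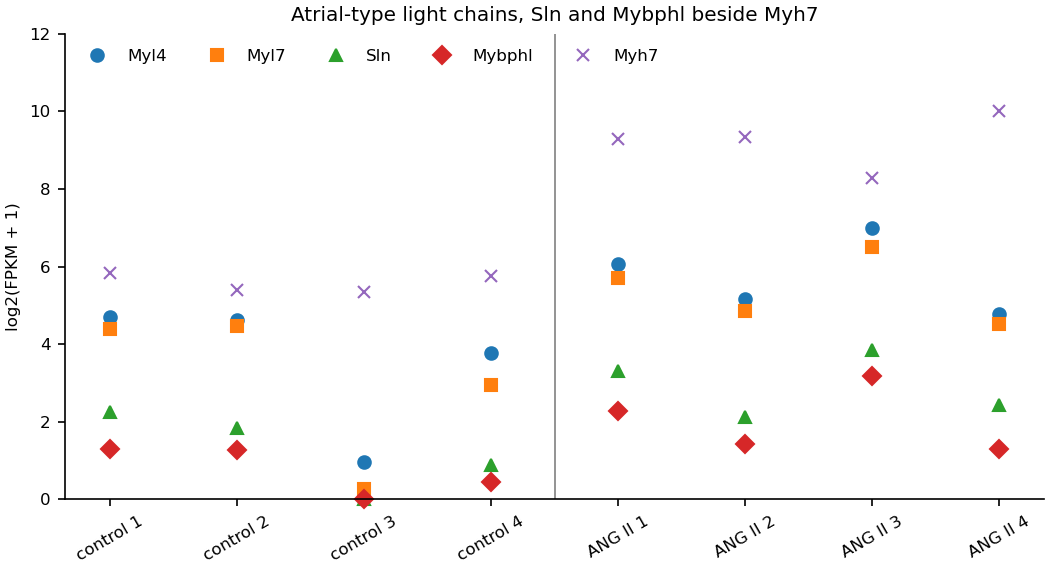
Levels of Myl4, Myl7, Sln, Mybphl and Myh7 in each library on log2(FPKM + 1); the vertical line parts the control libraries from the ANG II libraries. Myl4, Myl7, Sln and Mybphl are lowest in control 3 and highest in ANG II 3, the library in which Myh7, at 312 FPKM, is lowest of the ANG II group.

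The genes nearest to each pattern were sought by correlating deviations from the group means of log2(FPKM + 1) over the 8 libraries, among the 12947 genes averaging 1 FPKM or more. For Myl7 they were Myl4 (Pearson's r = 0.99), Cyp4v3 (0.99) and Snhg5 (0.97). For Myh7 they were Sik3 (0.98), Zfp704 (0.98) and Fiz1 (0.97), while Myh7 itself gave -0.27 with Myl4, 0.35 with Myh6 and 0.47 with Nppa. The ANG II libraries with more Myh7 were therefore not those with more Myl4. These values are descriptions, taken from 8 libraries that share their depth and scaling.

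Mylk3 (ENSMUSG00000031698, GRCm38 chr8:85324303-85386345, minus strand), the cardiac myosin light chain kinase, was lower with ANG II with little spread. It was at 311, 330, 326 and 318 FPKM in the control group. The ANG II values were 198, 204, 222 and 232 FPKM. No ANG II library came near the control range. The mean fell from 321 ± 8.55 to 214 ± 15.9 FPKM (SD, n = 4), a change of -33.4%, and limma put the log2 fold change at -0.59 ± 0.0582 (SE), with adjusted p = 8.17e-05. Scaling to the ventricular cardiomyocyte markers gave -0.39 (limma, adjusted p = 0.00155), short of the fold threshold, and this was its highest adjusted p over 19 alternatives. Mylk3 equalled 2.95 ± 0.221% of its substrate Myl2 in the control group and 2.72 ± 0.192% with ANG II, a log2 difference of -0.11 ± 0.0753 (SE) that did not pass (exact permutation test, p = 0.2, adjusted over 6 ratios 0.2).

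Ordered by FPKM, the control group ran Myl2, Myh6, Myl3, Mylk3, Myh7b, Myh7, Myl4 and Myl7. The ranges of Myl2 and Myh6, of Myh7b and Myh7, and of Myl4 and Myl7 overlapped, and all other neighbours were apart. With ANG II the order was Myl2, Myh6, Myl3, Myh7, Mylk3, Myl4, Myl7 and Myh7b. There the ranges of Myl2 and Myh6, of Myl4 and Myl7, and of Myl7 and Myh7b overlapped. Myh7 moved ahead of Mylk3 without overlap and rose from rank 1731 to rank 100 among all genes, while Myl2, Myh6 and Myl3 held ranks 7, 8 and 13 in the control group and 7, 9 and 13 with ANG II. With the longest transcript as length, mean Myl3 (4090 FPKM) exceeded mean Myh6 (3556 FPKM) in the control group, so the order of those genes depended on the length used.

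**Figure D4:**
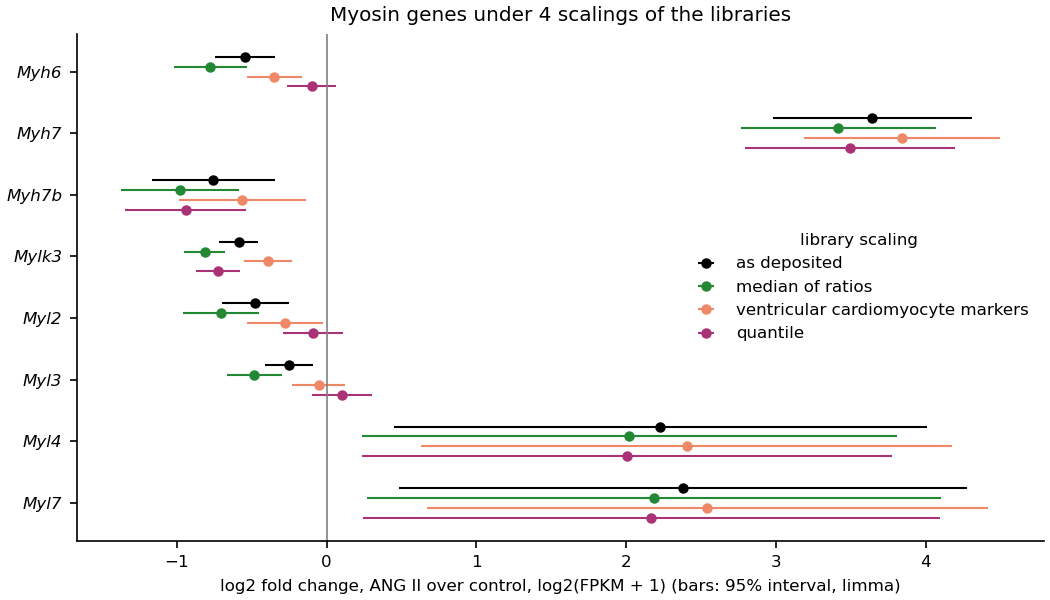
Log2 fold change of the 8 myosin genes with its 95% interval (limma, n = 4 against 4) under the deposited scaling and 3 others. Myh7 lies between 3.42 and 3.84 throughout, whereas Myh6 ranges from -0.78 to -0.10 and Myl3 changes sign under quantile scaling.

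Other kinases and phosphatase subunits acting on light chains were tested for 14 genes. Of these, 1 was called higher and 1 lower, a share near the 15.4% of all genes tested, and the median log2 fold change was 0.13. In 7 the ANG II libraries lay above all control libraries and in 2 below them, against 28.7% and 5.06% of all genes tested. Mylk4, a kinase related to Mylk3, was at 56.7, 70.04, 67.4 and 62.8 FPKM in the control group and 23.3, 26.6, 33.0 and 27.5 FPKM with ANG II. Its groups were far apart, and limma gave -1.20 ± 0.102 (SE) on the log2 scale, with adjusted p = 3.79e-05. The smooth muscle kinase Mylk did not pass, at 13.7 ± 0.999 and 15.3 ± 2.22 FPKM (SD, n = 4), with a log2 fold change of 0.14 (limma, adjusted p = 0.328). Calm2, one of the genes for calmodulin, which activates these kinases, rose from 119 ± 11.9 to 181 ± 17.1 FPKM (SD, n = 4; log2 fold change 0.60, limma, adjusted p = 5.53e-04). Its fold fell under the threshold in 3 other scalings, and 9.72% of its 50-base words occurred in other genes.

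Among thick filament partners and assembly factors, 12 of 14 genes were tested, 3 were called higher and 1 lower, and the median log2 fold change was -0.074. Of all genes tested 14.0% were called higher and 1.41% lower. Unc45b, the chaperone that folds the myosin motor, fell from 67.6 ± 7.78 to 44.7 ± 3.02 FPKM (SD, n = 4; log2 fold change -0.58, limma, adjusted p = 6.59e-04), and the call was lost with scaling to the ventricular cardiomyocyte markers (-0.39). Mybpc2, the fast skeletal form of myosin binding protein C, rose from 9.60 ± 2.74 to 25.5 ± 5.16 FPKM (log2 fold change 1.33, limma, adjusted p = 5.85e-04), and Myom3, an M-band protein, from 0.999 ± 0.219 to 2.03 ± 0.658 FPKM (0.58, limma, adjusted p = 0.0225). The groups overlap for Myom3, and its call held in 10 of 19 alternatives, with adjusted p up to 0.181 (limma). The third gene called higher was Mybphl, given above. The cardiac form, Mybpc3, was far more abundant, at 805 ± 35.9 and 931 ± 156 FPKM (SD, n = 4), and did not pass (0.20, limma, adjusted p = 0.208).

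Regulators of the cardiac myosin genes, mainly transcription factors and thyroid hormone genes, gave 2 calls among the 21 tested, both higher, with a median log2 fold change of 0.0016. Of all genes tested 14.0% were called higher. Dio2, which activates thyroid hormone, was at 0.619, 0.742, 0.446 and 1.65 FPKM in the control group and 3.69, 3.15, 2.16 and 3.10 FPKM with ANG II. Dio3, which inactivates it, was listed at 0 in control 2, 3 and 4, at 0.0795 FPKM in control 1, and at 0.720, 0.469, 1.102 and 0.504 FPKM with ANG II. Both deiodinases lay higher in all ANG II libraries, with adjusted p = 0.00183 and 0.0016 (limma). Thrb, a thyroid hormone receptor, was at 11.7 ± 0.984 and 8.47 ± 0.276 FPKM (log2 fold change -0.42, limma, adjusted p = 0.00214) and Tead4, an MCAT-binding factor, at 2.67 ± 0.306 and 3.93 ± 0.405 FPKM (0.43, limma, adjusted p = 0.0107). Neither reached the fold threshold. Thra, another thyroid hormone receptor, was more abundant, at 59.9 ± 4.42 and 57.2 ± 2.68 FPKM, and did not pass (-0.065, limma, adjusted p = 0.45). Tead1, another MCAT-binding factor, was more abundant than Tead4, at 85.4 ± 6.52 and 79.0 ± 11.3 FPKM. It did not pass either (-0.12, limma, adjusted p = 0.404).

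Of the 19 other myosin heavy and light chain genes, 11 were tested, and 5 were called higher and 0 lower at both thresholds in limma. Of all genes tested 14.0% were called higher and 1.41% lower. The median log2 fold change was 0.22 over the 11 genes and 0.15 over all genes tested. Myl1, the fast skeletal essential light chain, was at 28.5, 32.4, 32.3 and 24.9 FPKM in the control group and 85.3, 114, 80.0 and 73.0 FPKM with ANG II. No library overlapped, and limma gave 1.53 ± 0.134 (SE) on the log2 scale, with adjusted p = 4.28e-05. Of its 50-base words, 11.7% occurred in other genes. Of the nonmuscle heavy chains, 2 of 3 were called higher, Myh10 at 19.5 ± 1.73 and 36.4 ± 6.20 FPKM (log2 fold change 0.85, limma, adjusted p = 5.76e-04) and Myh9 at 106 ± 2.64 and 178 ± 14.2 FPKM (0.75, limma, adjusted p = 2.24e-05). The third, Myh14, was at 29.7 ± 1.79 and 28.3 ± 3.55 FPKM and did not pass (-0.072, limma, adjusted p = 0.561). The other calls were Myl6 (0.82), a nonmuscle and smooth muscle essential chain, and Myl9 (0.77), a smooth muscle regulatory chain. Smooth muscle myosin Myh11 did not pass (0.043, limma, adjusted p = 0.819). Of the smooth muscle markers 2 of 7 were called higher (Cnn1 and Myl9), and their sums overlapped, at 214 to 277 FPKM and 219 to 262 FPKM. Smtn, on the same list, was lower in every ANG II library but short of the fold threshold (-0.30, limma, adjusted p = 0.013). Acta2, the most abundant of that list, did not pass (-0.20, limma, adjusted p = 0.385). Of the 11 skeletal muscle markers 6 were tested and 2 were called higher (Myl1, itself one of these chains, and Tnnt3), and Myh4 and Tnnc2 were at 0 in all libraries. Ckm, muscle creatine kinase and by far the most abundant of that list, was lower in every ANG II library, at 662 ± 36.6 and 507 ± 51.8 FPKM (SD, n = 4; -0.39, short of the fold threshold), and Pvalb was at -0.13 and did not pass. Ckm is also on the list of ventricular cardiomyocyte markers, so its value is not particular to skeletal muscle. These marker values stand beside the rise of Myl1, Myh9 and Myh10, and their part in it was not tested.

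**Figure D5:**
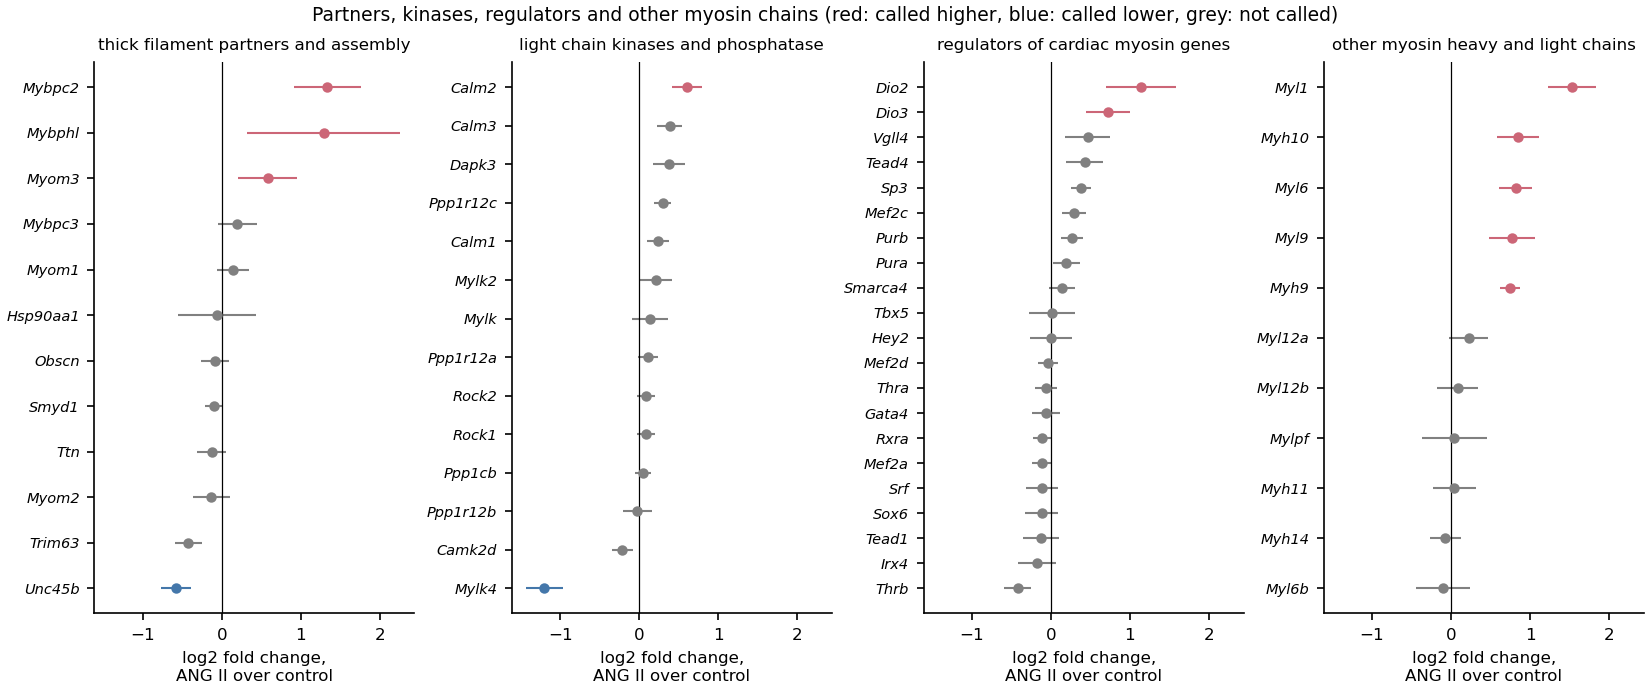
Log2 fold change, ANG II over control on log2(FPKM + 1), with its 95% interval (limma, n = 4 against 4) for every tested gene of 4 lists. Red marks genes called higher, blue genes called lower and grey genes not called; Mylk4, at -1.20, and Unc45b, at -0.58, are the genes called lower.

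Markers of the ventricular cardiomyocyte served as the nearest comparison for the ventricular chains. Of 10 markers, all tested, 0 were called higher and 1 lower, Tnni3, the cardiac inhibitory troponin, and in 5 the ANG II libraries lay below all control libraries and in 1, Tnnc1 (log2 fold change 0.13, limma, adjusted p = 0.149), above them. The median log2 fold change over the 10 markers was -0.15. Of all genes tested 14.0% were called higher and 1.41% lower, and the groups did not overlap in 28.7% lying above and 5.06% below. Tnni3 fell from 5522 ± 254 to 3697 ± 411 FPKM (SD, n = 4; log2 fold change -0.58, limma, adjusted p = 0.00102), and its call was lost with quantile scaling (-0.36) and with scaling to the list it belongs to (-0.39). Among 4 hypertrophy markers 3 were called higher, Nppa, Ankrd1 and Acta1, the skeletal actin gene, which was at 348, 355, 404 and 743 FPKM in the control group and 1314, 1396, 564 and 1157 FPKM with ANG II. ANG II 3 had the lowest Acta1 as well as the lowest Myh7 of its group, and its Acta1 lay within the control range.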

How the data were processed

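RNA-seq was carried out on poly(A) RNA from 4 ANG II and 4 control samples of left ventricle, grouped by their treatment labels. The authors deposited 1 table of FPKM values with a column per library and no pooling. Per the labels, Bowtie2, HISAT and RSEM were used, without versions. Their roles, the genome build, the annotation and strand use are not given in the sources used here. With the mean length of each gene's transcripts in GENCODE M21 (GRCm38), FPKM corresponded to whole fragments for 99.1 to 99.2% of values under 60 fragments in genes with 1 transcript (tolerance 0.05), and 97.1 to 97.7% in genes with several. The floor of 3 fragments covers counting error only, whereas the 95% intervals are limma's and rest on the spread between libraries.

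Values were analysed as log2(FPKM + 1), which understates the change of low genes, with limma 3.58.1 in R 4.3.3 (lmFit, eBayes with trend, two-sided), for the 19364 genes averaging 0.1 FPKM or more. P-values were adjusted by Benjamini-Hochberg over all genes tested. Ratios within a library were tested by exact permutation. The code was tested on simulated data. Gene lists, the rule for named genes (all members and locus transcripts, up to 3 called genes per list, markers near 0, 3 most alike genes) and tests were chosen with earlier results of these data known. Mylk, Mybpc3, Myom3, Myh9, Myh11, Myh14, Thrb, Thra, Tead4, Tead1, Kcna5, Stard10, Nr2f1, Smtn, Acta2, Ckm, Pvalb and Tnnc1 were named after their values were seen. Alternatives covered pseudocount, filter, scaling, variance trend, replicate block and leaving out each library. Promoters and microRNAs are RefSeq's.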

Additional observations from a re-analysis of the deposited data

Results flagged for a closer look

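Among 86 groups of 4 libraries looked at, 7 held a library whose gap to its nearest neighbour exceeded Dixon's 95% limit, and chance gives about 1 in 20 such groups. Myh7b in ANG II 4 was at 38.5 FPKM, above the other 3 libraries of its group. Mhrt in control 1 was at 38.1 FPKM and Mir208a in control 1 at 6.67 FPKM, each above the other control libraries. Dio3 was at 0.0795 FPKM in control 1 and listed at 0 in the other control libraries. Acta1 in control 4 was at 743 FPKM. In ANG II 3 the Myh7b to Myh7 ratio was 8.29% and the Myl2 to Myl3 ratio 196%, both above the other ANG II libraries, and this library held the lowest Myh7 and the highest Myl2 of its group.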

How the results depend on the processing

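The number of the 8 myosin genes called was 4 in the main comparison, and 1 (Myh7) with a log2 fold threshold of 1. With ventricular cardiomyocyte scaling the 4 calls were 3 higher and 1 lower. Over the other settings the number ran from 3 (quantile scaling) to 6 (filter at a mean of 1 FPKM, no fold threshold, and voom on recovered fragments, which was added after the data were seen). Leaving out 1 library gave 4 to 6. Myh7 and Myh7b were called in all 19 alternatives, Mylk3 in 18 and Myh6 in 17. Among the myosin genes and the transcripts at their loci, signs turned for Myl3 with quantile scaling (0.10), for Mir208b with ventricular cardiomyocyte scaling (0.051), which was also added after the data were seen, and for Mir208a with quantile scaling (-0.027) and in leave-one-out fits, whose values ran from -0.20 to 0.78 (-0.20 without control 2 and -0.13 without ANG II 4). The cause was not tested. Signs also turned over the alternatives for other named genes that were not called, Mybpc3 (-0.034 to 0.39), Mylk (-0.10 to 0.33), Myh11 (-0.20 to 0.23), Myh14 (-0.29 to 0.12), Tnnc1 (-0.10 to 0.32), Nr2f1 (-0.36 to 0.085), Pvalb (-0.53 to 0.080), Sik3 (-0.14 to 0.28) and Fiz1 (-0.21 to 0.23). The same held for Thra (-0.29 to 0.13) and Tead1 (-0.35 to 0.076). Leave-one-out log2 differences ran from 3.97 to 4.50 for Myh7 over Myh6, from -4.70 to -4.33 for Myh7b over Myh7, from 1.67 to 3.25 for Myl4 over Myl3, from 2.02 to 4.26 for Myl7 over Myl2, from -0.31 to -0.18 for Myl2 over Myl3 and from -0.16 to -0.07 for Mylk3 over Myl2. With 3 against 4 libraries the exact test cannot go below 0.0571. Same-numbered libraries correlated at -0.02, 0.06, -0.03 and -0.01 in their deviations, so the numbers did not pair the libraries. With the replicate block 4 myosin genes were called, and the ratios, equal in size, could not pass, since 4 pairs allow no p below 0.125. Depth limits Mir208a and the control 3 values of Myl4 and Myl7.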
